A study of Mus musculus with 6 samples.

Results

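The TGF-beta, myostatin and activin genes are 10 genes, chosen by symbol from the 55401 genes of the count matrix: the ligand genes *Tgfb1*, *Tgfb2*, *Tgfb3*, *Mstn* and *Inhba*, the receptor genes *Tgfbr1*, *Tgfbr2*, *Tgfbr3* and *Acvr2b*, and the antagonist gene *Fst*. RNA-seq was performed on C2C12, a line of mouse muscle precursor cells that form multinucleate myotubes once serum is lowered, 2 d post differentiation. The comparison asked how their transcripts differed between *Phf2* KO and control cells, with 3 libraries in each group. *Phf2* encodes a histone demethylase that acts on histone H3 dimethylated at lysine 9. The control cells, labelled wild type, were mock cells: they received a plasmid carrying Cas9, the ZsGreen reporter and a guide that matches no mouse sequence. The *Phf2* KO cells received 4 pooled Cas9 and ZsGreen plasmids with guides against *Phf2*. Both groups were sorted for ZsGreen and expanded without single-cell cloning, so each group was 1 pool of cells, and its 3 libraries came from wells of 1 experiment. The p-values therefore measure the spread between wells, and an effect of *Phf2* cannot be told apart from a difference between the 2 pools.

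TGF-beta ligands are secreted in a latent form, bound to their own propeptide and held in the matrix by latent TGF-beta binding proteins, and become active when that hold is released. An active ligand binds a type II receptor, which phosphorylates a type I receptor, which in turn phosphorylates SMAD2 and SMAD3; these join SMAD4 and enter the nucleus. Myostatin and activin A use activin type II receptors and the same SMADs, and follistatin binds and blocks both ligands. In skeletal muscle, TGF-beta and myostatin are known to hold back myoblast differentiation and muscle growth, and follistatin to favour them.

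The libraries held 52526109 to 67502788 estimated counts. *Phf2* (chr13:48801750-48871119) was at 102.4, 95.5 and 104.6 CPM (counts scaled to library size, with trimmed mean of M-values factors, TMM) in the control libraries and at 41.1, 37.6 and 38.6 in the KO libraries, which is a log2 fold change of -1.37 (SE 0.055, adjusted p = 8.324e-09, edgeR quasi-likelihood test with Benjamini-Hochberg adjustment over all genes tested). Of 17310 genes tested, 1122 passed an adjusted p of 0.05, a background of 6.48%, with 3.22% higher and 3.26% lower in KO cells. The median log2 fold change over all genes tested was -0.000958. The labels name C2C12 cells and not their state, which was read from 10 muscle differentiation markers, all of which were detected. All 10 had every KO library below every control library, where 25.1% of all genes tested had groups without overlap in either direction. Their summed level was 8074 to 9538 CPM in control and 6352 to 7020 CPM in KO libraries, and 7 passed the test as lower. Among them *Myog*, a transcription factor of differentiating myoblasts, was at 470.7 ± 38.3 CPM in control and 372.9 ± 30.8 CPM in KO cells (SD, n = 3 each, log2 fold change -0.34, adjusted p = 0.02214), and *Myh3*, embryonic myosin heavy chain, fell by 0.44 on the log2 scale (adjusted p = 0.01018).

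Of the 10 genes, 9 had enough counts to be tested and 2 passed: *Tgfb2* was higher and *Fst* was lower in *Phf2* KO cells. *Tgfb3* had every KO library above every control library without passing. Groups did not overlap for 25.1% of all genes tested. The median log2 fold change of the 9 was 0.02, and the values ran from -0.75 to 0.34. With so few genes, 2 of 9 beside a background of 6.48% is a description. The test with the replicate number as a block called 4 of the 9, adding *Tgfb3* and *Inhba*. By edgeR's exactTest and by limma-voom 2 passed, and by DESeq2 3.

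**Figure D1:**
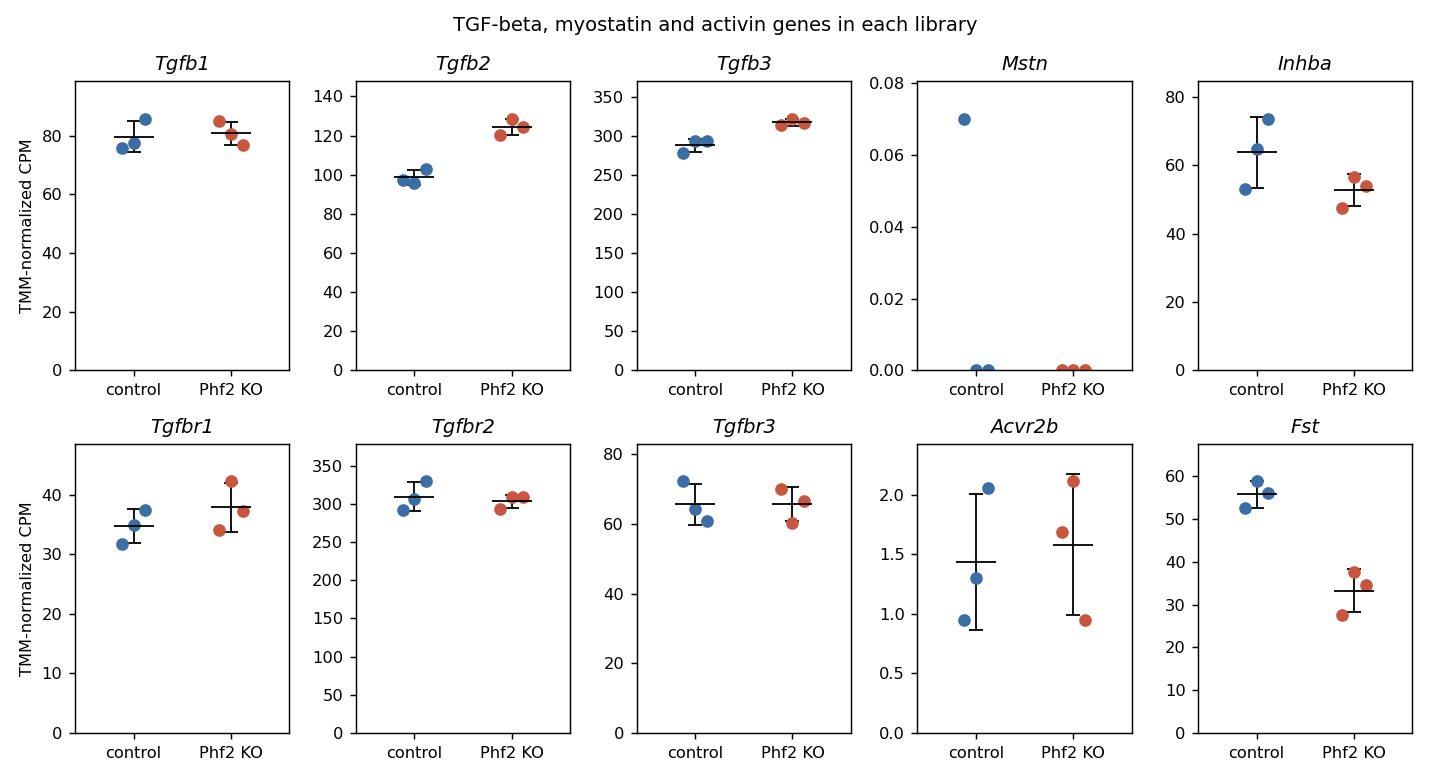
TMM-normalized CPM of each of the 10 genes (y axis, from 0, with a scale of its own in each panel) in the 3 control and 3 *Phf2* KO libraries. Points are libraries, and the black bars give the mean and SD except for *Mstn*, which is near 0 in all libraries. The control and KO points are apart for *Tgfb2*, *Tgfb3* and *Fst*, and they overlap for the other genes.

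**Figure D2:**
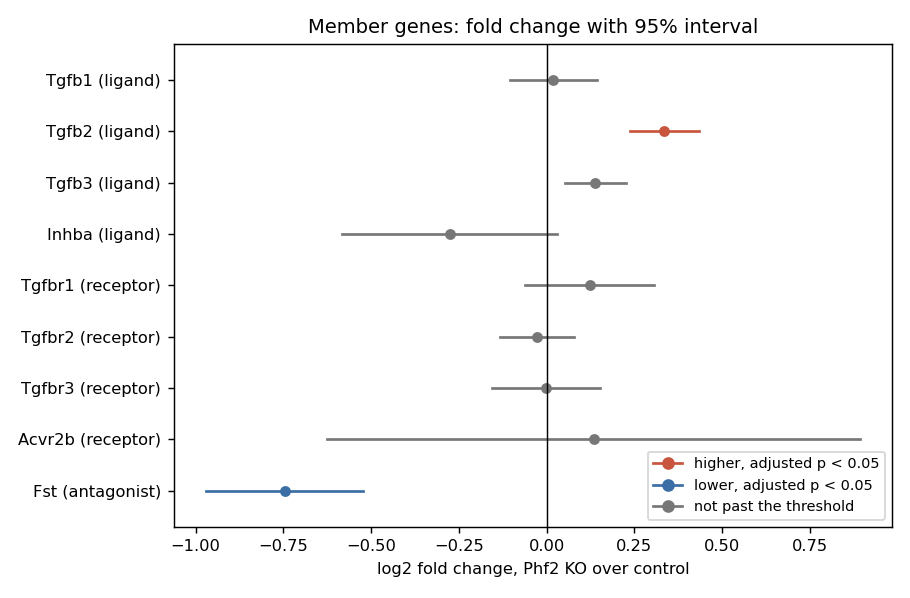
Log2 fold change, *Phf2* KO over control (x axis), of the 9 genes tested, with 95% intervals of the edgeR quasi-likelihood fit and 3 libraries per group. *Tgfb2* (0.34) lies right of 0 and *Fst* (-0.75) left of it with adjusted p under 0.05, and the interval of *Acvr2b*, the gene with the fewest counts among them, is the widest.

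Among the ligands, *Tgfb2* (ENSMUSG00000039239, chr1:186622792-186705989, minus strand) encodes TGF-beta 2. Its promoter is shown because it is the TGF-beta ligand gene that passed the test. The 250 bases before its start (chr1:186705990-186706239, GRCm38.p6, minus strand, from RefSeq, whose promoter table held 7 of the 10 genes) read:

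Tgfb2: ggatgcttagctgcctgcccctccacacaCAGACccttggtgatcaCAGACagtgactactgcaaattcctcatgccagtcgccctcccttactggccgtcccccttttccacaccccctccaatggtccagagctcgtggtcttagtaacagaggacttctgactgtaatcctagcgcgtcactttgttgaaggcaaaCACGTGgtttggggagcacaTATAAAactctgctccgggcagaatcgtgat

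Capitals mark the letters of 3 motifs, searched on both strands. CAGAC, letters bound by SMAD proteins, began 221 and 204 bases before the start and occurs in 42.2% of 32851 promoters of this length. CANNTG, the E-box letters, matched once as CACGTG, 51 bases before the start; CANNTG occurs in 66.2% and CACGTG, one of its forms, in 6.02% of promoters. TATAAA, the TATA-box letters, began 31 bases before the start and occurs in 12.4% of promoters. Such matches are descriptions of the sequence, and no binding was measured.

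*Tgfb2* was at 97.5, 95.5 and 102.7 CPM in the control libraries and at 120.2, 128.6 and 124.4 CPM in the KO libraries. Every KO library was above every control library. The means were 98.6 ± 3.70 and 124.4 ± 4.21 CPM (SD, n = 3 each), a log2 fold change of 0.34 (SE 0.046, 95% interval 0.24 to 0.43, adjusted p = 0.000672, edgeR). It passed without any 1 of the 6 libraries. On the TPM values of the single-library tables, a measure scaled to transcript length and library, the log2 difference was 0.35, with an adjusted p of 0.05278 by limma.

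*Tgfb3* (ENSMUSG00000021253, chr12:86056745-86079041, minus strand), which encodes TGF-beta 3, was at 279.1, 293.4 and 293.6 CPM in control and at 314.2, 322.5 and 316.9 CPM in KO libraries. The groups did not overlap, with KO cells on the higher side. The log2 fold change was 0.14 (SE 0.041, 95% interval 0.05 to 0.23) with an adjusted p of 0.06005 by edgeR, 0.03708 with the replicate block and 0.011 by DESeq2. The last 2 were the only ones of 19 alternatives in which it passed. The adjusted p was 0.2065 by edgeR's exactTest, 0.05252 by limma-voom and 0.08631 to 0.2231 with 1 library left out. *Ttll5* lies across the gene on the opposite strand with up to 4084 estimated counts, against at least 15917 for *Tgfb3*, and whether the counting used strand is not given in the sources used here. *Tgfb1* (ENSMUSG00000002603, chr7:25687002-25705077, plus strand), which encodes TGF-beta 1, was at 75.9, 77.3 and 85.8 CPM in control and at 84.95, 80.5 and 76.85 CPM in KO libraries. These ranges overlapped, and the 95% interval of the log2 fold change ran from -0.10 to 0.14 (adjusted p = 0.9092).

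The 3 TGF-beta ligand genes were also set against each other as shares of their summed TPM, which is per transcript length. *Tgfb3* made up most of the sum, with 60.54% ± 1.05 in control and 60.49% ± 0.669 in KO cells (SD, n = 3 each). The share of *Tgfb2* was 14.1, 13.0 and 13.3% in control and 15.0, 15.85 and 15.75% in KO libraries, without overlap. The share of *Tgfb1* was 25.56, 25.3 and 27.1% in control and 25.2, 23.6 and 23.1% in KO libraries, also without overlap and on the lower side. These shares sum to a whole, so a higher share of one gene lowers the others. They also depend on how length is counted. As CPM per kb of summed exon length, the control means were 85.3 for *Tgfb3*, 17.0 for *Tgfb2* and 15.8 for *Tgfb1*.

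*Inhba* (ENSMUSG00000041324, chr13:16011851-16031621, plus strand) encodes the beta A subunit, a pair of which forms activin A. It was at 52.99, 64.8 and 73.6 CPM in control and at 47.5, 56.55 and 54.05 CPM in KO libraries. KO library 2 and KO library 3 were above control library 1, so the groups overlapped. The log2 fold change was -0.28 (SE 0.127, 95% interval -0.58 to 0.03, adjusted p = 0.307, edgeR). With the replicate block the adjusted p was 0.02075, and without control library 1, the lowest of its group, the log2 fold change was -0.40 with an adjusted p of 0.0153. These were the only 2 of 19 alternatives in which *Inhba* passed. Without control library 3, the highest of its group, the log2 fold change was -0.16 (adjusted p = 0.4184). By edgeR's exactTest the adjusted p was 0.1475. *Mstn* (ENSMUSG00000026100, chr1:53061640-53068079, plus strand), which encodes myostatin, had 4 estimated counts in control library 1 and 0 in the other 5 libraries. A read pair adds about 4 of these counts, so this was about 1 read pair in all. It was below the filter and was not tested. A count of 0 allows up to 3 read pairs per library, 0.178 to 0.229 CPM, so a difference in *Mstn* was not detectable at this depth.

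None of the 4 receptor genes passed the test in edgeR, in DESeq2 or in limma-voom, and 0 had an unadjusted p under 0.05 in any of the 3. *Tgfbr2* (ENSMUSG00000032440, chr9:116084293-116175360, minus strand), the type II receptor for TGF-beta, was at 291.9, 306.9 and 329.5 CPM in control and at 293.4, 308.8 and 308.5 CPM in KO libraries. The KO range lay inside the control range, and the 95% interval of the log2 fold change was -0.13 to 0.08 (adjusted p = 0.8318). *Tgfbr1* (ENSMUSG00000007613, chr4:47353222-47414931, plus strand), the type I receptor, was at 31.8, 35.0 and 37.5 CPM in control and at 34.0, 42.3 and 37.4 CPM in KO libraries. The groups overlapped, with an interval of -0.06 to 0.31 (adjusted p = 0.491). *Tgfbr3* (ENSMUSG00000029287, chr5:107106570-107289629, minus strand), which encodes betaglycan, a co-receptor that presents TGF-beta 2 to the type II receptor, was at 72.2, 64.2 and 60.7 CPM in control and at 69.98, 60.3 and 66.6 CPM in KO libraries. Its means were 65.7 ± 5.89 and 65.6 ± 4.92 CPM (SD, n = 3 each), and the interval was -0.16 to 0.15 (adjusted p = 0.9967).

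*Acvr2b* (ENSMUSG00000061393, chr9:119402118-119434995, plus strand), a type II receptor for activin and myostatin, had 54, 76 and 120 estimated counts in the control libraries and 104, 111 and 64 in the KO libraries. Its levels were 1.44 ± 0.569 and 1.58 ± 0.591 CPM, with overlapping groups. At this depth the interval of the log2 fold change was wide, from -0.63 to 0.89 (adjusted p = 0.8964), so changes of considerable size in either direction lie within it.

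*Fst* (ENSMUSG00000021765, chr13:114452290-114458951, minus strand), which encodes follistatin, was the antagonist gene. It was at 52.6, 58.8 and 56.0 CPM in the control libraries and at 27.7, 37.7 and 34.5 CPM in the KO libraries. Every KO library was below every control library, and KO library 1 was the lowest. The means were 55.8 ± 3.12 and 33.3 ± 5.10 CPM (SD, n = 3 each), a log2 fold change of -0.75 (SE 0.1003, 95% interval -0.97 to -0.52, adjusted p = 0.001819, edgeR), or 0.596 times the control level. The call held without any 1 of the 6 libraries, with adjusted p from 0.000325 to 0.0233. On the TPM values the log2 difference was -0.81 with an adjusted p of 0.06544 by limma. The muscle differentiation markers were lower in the same libraries, and their part in the *Fst* and *Tgfb2* results was not tested. In bulk RNA, fewer cells of a type and less RNA per cell cannot be told apart.

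Set against *Inhba* alone, *Fst* had 2.80, 2.61 and 2.03 TPM per TPM of *Inhba* in the control libraries and 1.56, 1.87 and 1.43 in the KO libraries. The groups did not overlap, and both genes were lower in mean CPM in KO cells. *Inhbb* and *Gdf11*, other ligand genes named after their values were seen, are not in this ratio. They were at 43.1 and 32.1 TPM in control cells, against 22.4 for *Inhba*, and at 45.2 and 31.5 TPM in KO cells. Neither passed (adjusted p = 0.8233 and 0.8453, edgeR). The genes whose profile over the 6 libraries was nearest to that of *Fst*, by root mean square distance of centred log2(CPM + 1) values over 10923 genes, were *Adgrg1*, an adhesion G protein-coupled receptor gene (distance 0.0743), *Serpinb9b*, a serine protease inhibitor gene (0.0873), and *Tmeff2*, a transmembrane gene with follistatin-like domains (0.0891). Their log2 fold changes were -0.84, -0.68 and -1.01. The choice by profile fixed this direction, so it is a description.

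Levels were compared between genes only as TPM. In control cells *Tgfb3* was highest, at 184.1 ± 5.63 TPM, followed by *Tgfbr2* at 126.0 ± 7.29, *Tgfb1* at 79.1 ± 5.69, *Fst* at 54.6 ± 5.04 and *Tgfb2* at 41.0 ± 1.48 (SD, n = 3 each). *Tgfbr3* at 23.5 ± 2.13 and *Inhba* at 22.4 ± 4.31 TPM came next, and their ranges overlapped, unlike those of the other neighbours in this order. *Tgfbr1* was at 13.7 ± 2.45, *Acvr2b* at 0.966 ± 0.216, and *Mstn* was listed at 0 in all but control library 1. In KO cells *Fst* (25.9 to 39.1 TPM) and *Tgfb2* (49.8 to 54.0 TPM) changed places, and the other 8 genes kept their rank. Dividing CPM by the summed exon length instead of using TPM placed *Tgfb2* ahead of *Tgfb1* and *Fst* in control cells, so the order of these genes depends on how length is counted. The control libraries held about 9.35 ± 1.46 TPM of the type II receptor gene *Tgfbr2* per TPM of the type I receptor gene *Tgfbr1* and the KO libraries 7.57 ± 1.14, with overlapping ranges.

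**Figure D3:**
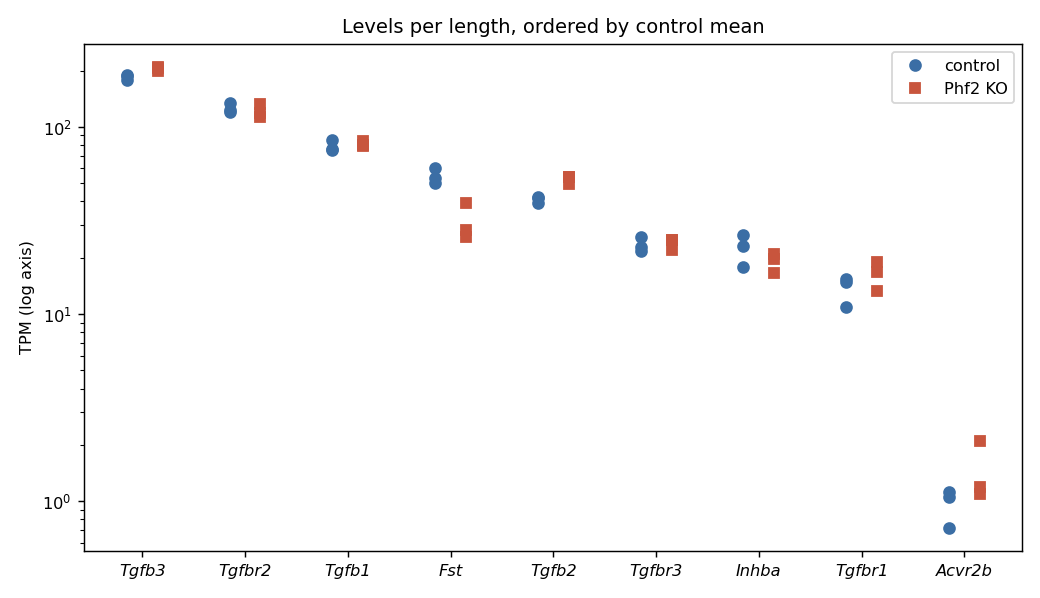
TPM of 9 of the 10 genes (y axis, log scale) in the 3 control and 3 *Phf2* KO libraries, ordered by the control mean. *Mstn* is left out because it was listed at 0 in 5 libraries. *Fst* lies above *Tgfb2* in control libraries and below it in KO libraries.

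The other genes of the pathway were described from a list of 46, of which 38 were tested. Of these, 8 passed as higher and 1 as lower (*Tll1*), beside backgrounds of 3.22% and 3.26%, and 27 had a log2 fold change above 0 and 11 below. Their median was 0.06, against -0.000958 over all genes tested. With the replicate block and by DESeq2, 9 passed as higher and 3 as lower. *Pmepa1*, a negative regulator and target in both lists, was among those lower with the block (log2 fold change -0.16, adjusted p = 0.1011 without and 0.03927 with it). The count of calls was 3 without control library 2, and 5 without KO library 2 or without KO library 3. Limma on log2(TPM + 1) called 1. No other ligand gene (0 of 3 tested) or receptor gene (0 of 4) passed in edgeR, DESeq2 or limma-voom, with 0 and 2 of them at an unadjusted p under 0.05 in edgeR. Of 4 other antagonist genes tested, 0 passed in edgeR and 1 in DESeq2, with 1 at an unadjusted p under 0.05 in edgeR.

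The latency group held genes of the latent TGF-beta binding protein family, *Ltbp2* among them, and of other proteins linked to the latent form. Not every member need hold TGF-beta itself. Of 6 tested, 3 passed, all higher, beside a background of 3.22%. With so few genes this is a description. *Ltbp1*, a latent TGF-beta binding protein, was at 148.3, 146.2 and 161.6 CPM in control and 179.1, 181.7 and 185.6 CPM in KO libraries, without overlap (log2 fold change 0.26, SE 0.048, adjusted p = 0.005246). *Ltbp3*, of the same family, rose by 0.23 (adjusted p = 0.009821), a call that was lost without control library 2 (adjusted p = 0.05971). *Emilin1*, an extracellular matrix protein that keeps pro-TGF-beta from being processed, was at 136.8 ± 9.68 CPM in control and 171.5 ± 11.7 CPM in KO cells (SD, n = 3 each, log2 fold change 0.33, adjusted p = 0.006521). By limma on log2(TPM + 1), *Ltbp3* passed (adjusted p = 0.04005), but *Ltbp1* and *Emilin1* did not (adjusted p = 0.1564 and 0.06925).

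Of 7 genes that release or process the ligands, 2 passed as higher and 1 as lower, beside backgrounds of 3.22% and 3.26%. *Thbs1*, thrombospondin 1, a matrix protein that activates latent TGF-beta, was at 3531, 3313 and 3866 CPM in control and 4537, 4231 and 4117 CPM in KO libraries. All KO libraries were above the control libraries (log2 fold change 0.27, adjusted p = 0.02835), but the call was lost when any library other than control library 3 was left out, with adjusted p from 0.05509 to 0.2587, and was lost in the test without a filter (adjusted p = 0.09483). *Tll1*, a tolloid-like protease that cleaves the myostatin propeptide, was at 2.60 ± 0.682 CPM in control and 1.28 ± 0.2005 CPM in KO cells (SD, n = 3 each, log2 fold change -1.02, SE 0.2604, adjusted p = 0.03192). Its level was low, and the call was likewise lost when any library other than control library 3 was left out, with adjusted p from 0.06429 to 0.1886, and by limma-voom (adjusted p = 0.05671), which left 0 pathway genes called lower. The remaining one that rose was *Itgav*, an integrin subunit gene outside the rule for named genes and named after its value was seen.

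The SMAD group held *Smad2*, *Smad3*, *Smad4* and *Zfyve9*, which is not itself a SMAD gene and is outside the rule for named genes. Of these 4 genes, 1 passed, as higher, beside a background of 3.22%. *Smad4*, the common partner SMAD, was at 74.1, 73.3 and 83.2 CPM in control and 86.3, 89.5 and 91.5 CPM in KO libraries, without overlap (log2 fold change 0.21, SE 0.055, adjusted p = 0.03389). Its call was lost without control library 1, control library 2, KO library 2 or KO library 3, with adjusted p from 0.1204 to 0.1886. *Smad2* and *Smad3*, the SMADs that the receptors phosphorylate, had 95% intervals of -0.11 to 0.14 and -0.08 to 0.14 (adjusted p = 0.9374 and 0.8453). RNA levels do not report on their phosphorylation, which was not measured.

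Among 10 negative regulators, 2 passed, both higher, beside a background of 3.22%. *Smad7*, the inhibitory SMAD that is itself switched on by TGF-beta signaling, was at 19.5, 20.4 and 22 CPM in control and 30.4, 28.3 and 26.8 CPM in KO libraries, with means of 20.64 ± 1.27 and 28.49 ± 1.80 CPM (SD, n = 3 each). Every KO library was above every control library (log2 fold change 0.46, SE 0.0795, adjusted p = 0.003053), and the call held without any 1 library. It was lost by limma on log2(TPM + 1), where the log2 difference was 0.45 (adjusted p = 0.06387). *Smurf2*, a ubiquitin ligase that works with SMAD7 on the receptors, rose by 0.25 (adjusted p = 0.009663), a call lost without control library 2 (adjusted p = 0.06928).

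**Figure D4:**
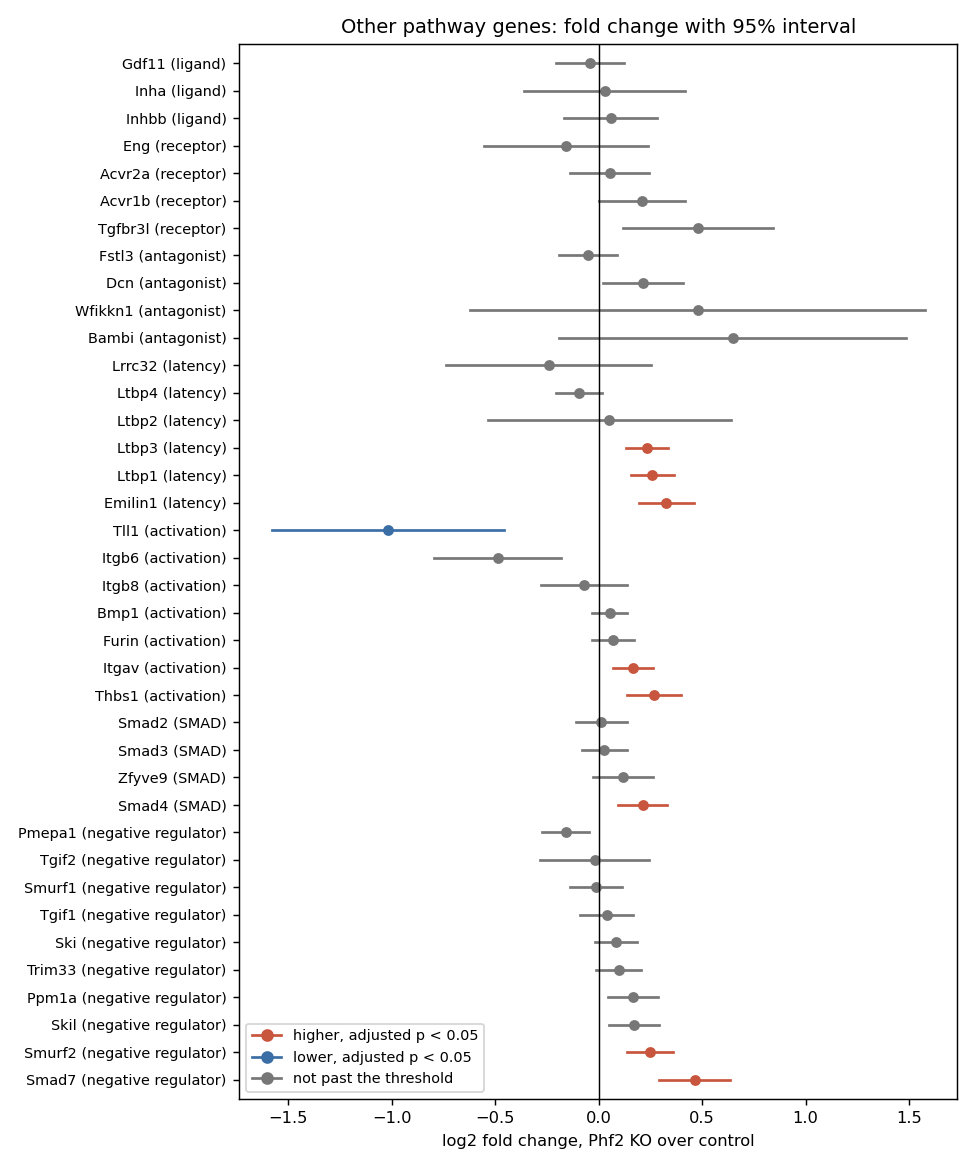
Log2 fold change, *Phf2* KO over control (x axis), of the 38 other pathway genes tested, grouped by role, with 95% intervals of the edgeR quasi-likelihood fit and 3 libraries per group. The 8 genes that passed as higher fall in the latency, activation, SMAD and negative regulator groups, and *Tll1* is the 1 that passed as lower.

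Genes known to respond to TGF-beta were described from a list of 22, of which 20 were tested. *Smad7*, *Skil* and *Pmepa1* stand in both lists. Of the 20, 8 passed as higher and 1 as lower, beside backgrounds of 3.22% and 3.26%. The lower side varied with the test: 8 were higher and 4 lower by DESeq2 and without control library 3, and 8 were higher and 3 lower with the replicate block. By edgeR's exactTest 5 were higher and 1 lower. In the main comparison as many log2 fold changes lay above 0 (10) as below (10), and the median was 0.02. Without KO library 2 the count of calls was 5, and by limma on log2(TPM + 1) it was 4. *Ccn2*, a matricellular protein gene induced by TGF-beta, was at 275.9, 285.0 and 312.3 CPM in control and 452.8, 418.3 and 423.4 CPM in KO libraries. The groups did not overlap (log2 fold change 0.57, SE 0.051, adjusted p = 3.224e-05).

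*Lox*, which cross-links collagen, was at 1518 ± 76.05 CPM in control and 1842 ± 90.96 CPM in KO cells (log2 fold change 0.28, adjusted p = 0.001865, SD, n = 3 each). *Tagln*, an actin-binding protein of smooth muscle, rose by 0.25 (adjusted p = 0.004286), and *Acta2*, smooth muscle actin, by 0.17 (adjusted p = 0.005246). *Snai2*, a transcriptional repressor, rose by 0.24 (adjusted p = 0.01118), and *Col1a1*, a collagen I chain, by 0.20 (adjusted p = 0.01177). The calls of *Col1a1* (lost without control library 1, control library 3 or KO library 2), *Snai2* (without control library 2 or KO library 2) and *Acta2* (without KO library 2) each depended on single libraries, with adjusted p up to 0.1178, 0.07888 and 0.06021. The calls of *Col1a1* and *Acta2* were also lost by edgeR's exactTest (adjusted p = 0.06617 and 0.0961). Other matrix genes of the list lay below 0 without passing, and are named after their values were seen: *Fn1*, fibronectin, had a log2 fold change of -0.17 and *Timp1*, a metalloprotease inhibitor, of -0.16, both with every KO library below every control library, and *Col3a1*, a collagen III chain, of -0.11 with overlapping groups (adjusted p = 0.06534, 0.102 and 0.1161). The eighth was *Col1a2*, the other collagen I chain, which is outside the rule for named genes and named after its value was seen.

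*Cdkn1a*, a cell cycle inhibitor that TGF-beta induces in many cells and that also rises when myoblasts leave the cell cycle, was the gene of the list that passed as lower in edgeR's quasi-likelihood test. It was at 1027, 1070 and 975.4 CPM in control and 681.6, 689.3 and 662.7 CPM in KO libraries, without overlap (log2 fold change -0.60, SE 0.041, adjusted p = 3.452e-06). *Ccn2* and *Smad7* on one side and *Cdkn1a* on the other differed in opposite directions within this list.

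**Figure D5:**
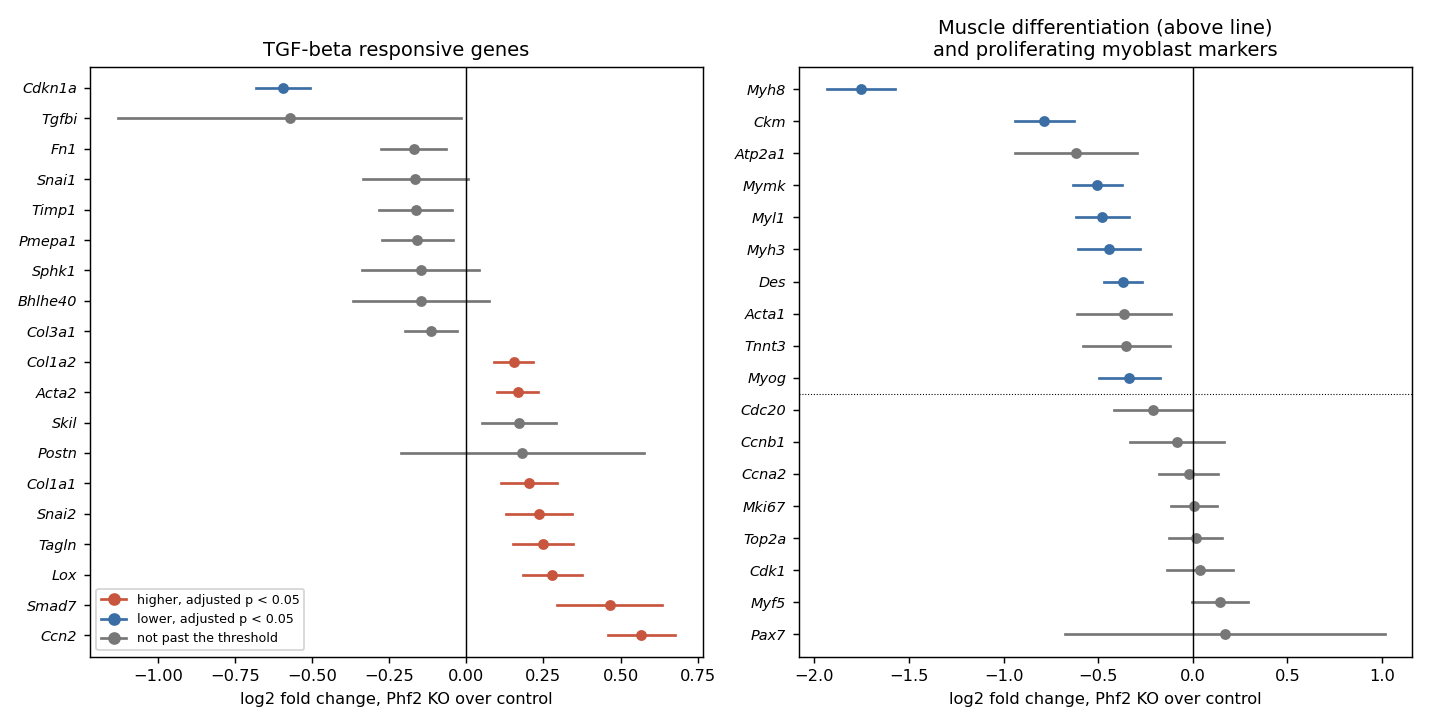
Log2 fold change, *Phf2* KO over control (x axis), with 95% intervals and 3 libraries per group, of 19 of the 20 TGF-beta responsive genes tested (left) and of 10 muscle differentiation and 8 proliferating myoblast markers (right, above and below the dotted line). The responsive genes lie on both sides of 0, from *Cdkn1a* (-0.60) to *Ccn2* (0.57), and all 10 muscle differentiation markers lie left of 0.

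The markers of other cell states were read beside these results. Over all genes tested, 3.22% passed as higher and 3.26% as lower. Of 8 proliferating myoblast markers, 0 passed in edgeR, DESeq2 or limma-voom, with 1 at an unadjusted p under 0.05 in edgeR, and their summed level was 247.7 to 269.8 CPM in control and 244.5 to 267.1 CPM in KO libraries. *Mki67*, a marker of cycling cells, had a log2 fold change of 0.01 (adjusted p = 0.9737). Of 5 fibroblast markers, 1 passed, as lower, with summed levels of 56.7 to 70.9 and 56.6 to 67.1 CPM. Of 4 smooth muscle markers, 1 passed as higher (*Acta2*) and 1 as lower (*Des*, which is also a muscle differentiation marker), with sums of 4044 to 4200 and 4130 to 4346 CPM. *Acta2* was the only 1 above 0, and 3 lay below. *Cnn1*, named after its value was seen, had a log2 fold change of -0.52 (adjusted p = 0.07815, edgeR), with every KO library below every control library. *Myh11* had at most 26 estimated counts in a library. Of 4 adipocyte markers 1 was tested and passed as higher (*Cebpa*), with sums of 29.3 to 37.0 CPM in control and 48.0 to 54.5 CPM in KO libraries, while *Plin1* was at 0. These sums were almost all *Cebpa*. *Adipoq* had 8 estimated counts in control library 3 and 0 in every other library, and *Cidec* had at most 6 in a library. *Cebpa* was therefore the only marker of this list with enough counts, and no change of the list as a set could be read. Immune cell markers summed to 1.58 to 2.25 CPM over all libraries with *Adgre1* at 0, and endothelial markers to 0.0887 to 0.537 CPM with *Tie1* at 0. The part of the differentiation markers and of *Cebpa* in the ligand, antagonist and target results was not tested.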

How the data were processed

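Poly(A) RNA was prepared with a directional kit and sequenced as paired 150 bp reads. The authors aligned the reads with HISAT2 to mm10 and assembled and quantified transcripts with StringTie. The versions and the annotation are not given in the sources used here. The deposited matrix holds estimated counts per gene, which StringTie derives from coverage (74.98 to 74.99 covered bases per count, so a read pair adds about 4), and they were used as whole numbers. The deposited single-library tables hold TPM, treated as a signal because assembled loci are listed beside reference genes.

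Counts were tested with the quasi-likelihood test of edgeR 4.0.16 in R 4.3.3 (TMM scaling, filterByExpr with a minimum count of 10, Benjamini-Hochberg adjustment over 17310 genes, threshold 0.05). Log2 fold changes are KO over control, with 95% intervals. The script was tested on simulated counts. The exactTest of edgeR, which the authors used, DESeq2 1.42.0, limma 3.58.1, other scalings, filters, TPM, a replicate block and leaving out each library were alternatives. The exactTest here called 1129 genes, more than the paper reports at the same threshold, so its list was not reproduced. The cause of that difference was not tested. Deviations of libraries with the same replicate number correlated at 0.29, 0.374 and 0.205 over 10924 genes, against at most 0.0377 otherwise. The pairing comes from this check and not from a stated design. An exact permutation test of 3 against 3 cannot go below 0.1 and was not used.

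Coordinates are GRCm38 (mm10). The genes and all lists were chosen with earlier results of these data known. Named were *Phf2*, the 10 genes, the called genes of the pathway and target lists (at most 8 of each, by size of change), *Smad2*, *Smad3*, *Smad4*, *Smad7*, *Ccn2*, the 3 genes of at least 5 CPM nearest to *Fst*, *Myog*, *Myh3*, *Mki67* and defining markers at 0. The values of 1 further gene of the target list are not reported here. Intervals and floors cover the spread between libraries or counting error only.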

Additional observations from a re-analysis of the deposited data

How the results depend on the processing

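With the replicate number as a block (pairing), calls went from 2 to 4 of the 10 genes, from 9 to 12 of the pathway genes, from 9 to 11 of the targets and from 1122 to 1316 of all genes, and among the genes recomputed and named here it changed the calls of *Tgfb3*, *Inhba* and *Pmepa1*. By limma on log2(TPM + 1), log2(TPM + 0.1) and log2(TPM + 1) without a filter, calls were 0, 1 and 0 of the 10 genes (3 at an unadjusted p under 0.05 each time), 1, 1 and 0 of the pathway genes, 4, 4 and 1 of the targets, and 158, 178 and 4 of all genes. At an adjusted p under 0.01, 5 pathway genes and 472 of all genes passed. Leaving out 1 library gave 2 to 3, 3 to 11, 5 to 12 and 468 to 1039 calls in the same order. The log2 fold change of *Tgfbr3*, near 0, turned positive by DESeq2 (0.0021), limma-voom (0.0038) and the TPM fits (0.021, 0.022 and 0.021). Leaving out 1 library also turned directions of uncalled genes: *Tgfb1* -0.018 to 0.073, *Tgfbr2* -0.071 to 0.018, *Tgfbr3* -0.057 to 0.069, *Acvr2b* -0.13 to 0.48, *Smad2* -0.022 to 0.063 and *Smad3* -0.012 to 0.063. *Smad2* and *Smad3* kept their direction otherwise. *Tgfb2* and *Fst* kept their direction in all 19 alternatives and passed in 17 and 16. The cause of the lost calls was not tested. Depth limits *Mstn* and *Acvr2b*.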
